A study of Mus musculus with 16 samples.

Results

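Gluconeogenesis makes glucose from lactate, amino acids and glycerol, and the 8 genes described here encode its dedicated enzymes and the transporter that feeds its last step. They were chosen by name: Pcx, Pck1, Pck2, Fbp1, Fbp2, G6pc, G6pc3 and Slc37a4. All 8 were found by Ensembl identifier among the 55385 genes of the count table, each had counts in all 16 libraries, and each passed the filter on low counts in every fit.

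Most steps of gluconeogenesis are glycolysis run backwards, and only a few need enzymes of their own. Pyruvate carboxylase (Pcx) makes oxaloacetate in mitochondria, phosphoenolpyruvate carboxykinase (Pck1 in the cytosol, Pck2 in mitochondria) turns it into phosphoenolpyruvate, fructose bisphosphatase (Fbp1 and its muscle isoform Fbp2) removes a phosphate further up, and glucose 6-phosphatase (G6pc, and the broadly expressed G6pc3) releases free glucose after the carrier encoded by Slc37a4 has brought glucose 6-phosphate into the endoplasmic reticulum. Liver and kidney cortex are the organs known to run the whole route and to release glucose during a fast. In adipose tissue, by contrast, Pck1 and Pcx are known for making glycerol phosphate and exporting citrate for fat synthesis.

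The libraries came from male C57BL/6 mice that were either fed without restriction or fasted for 24 h, all bought at 12 weeks of age and wild type. Muscle, liver, heart, lung, white adipose tissue, brown adipose tissue, spleen and kidney were taken, and equal amounts from the 3 mice of each group went into 1 pool per tissue for strand-specific short-read RNA sequencing. There was therefore 1 fed and 1 fasting library for each of 8 tissues, 16 in all, and no replicate of any group. A difference between the fed and the fasting library of a tissue compares those 2 libraries, with counting error only. In whole tissue, fewer cells of a type and less RNA per cell cannot be told apart.

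Library totals ran from 14245178 to 36069968 counts, so that the 3 counts taken as the detection floor corresponded to 0.0832 to 0.211 counts per 1000000 counts of the library (CPM), the unit used below. The marker list of each tissue had its highest sum in that tissue, led by Alb and Apob for hepatocytes, Kap and Lrp2 for kidney tubules, Myh4 and Acta1 for skeletal muscle, Myh6 and Actc1 for heart muscle, Cfd and Fabp4 for adipocytes, Ucp1 and Cidea for brown adipocytes, Ms4a1 for lymphocytes of spleen, and Scgb1a1 and Sftpc for lung epithelium. Several lists of another cell type differed between the fed and fasting library of a tissue. In heart the hepatocyte list summed to 31.1 and 118 CPM and the adipocyte list to 417 and 948 CPM, and in lung the lymphocyte list to 150.0 and 65.4 CPM. The fed spleen library held acinar pancreas transcripts, a list that summed to 602 CPM fed and 11.8 CPM fasting. The fasting white adipose library held epithelial and ciliated cell transcripts that the fed one nearly lacked: a list of 6 ciliated epithelium genes, written after the data had been seen, summed to 11.1 CPM in the fed and 681 CPM in the fasting library. The results of these tissues below are to be read beside these differences, whose part in them was not tested.

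The 8 genes lie on 6 chromosomes of GRCm38. Pck1 (ENSMUSG00000027513) spans chr2:173153048-173159273 on the plus strand, and Pck2 (ENSMUSG00000040618) chr14:55540266-55551242 on the plus strand. Fbp1 (ENSMUSG00000069805, chr13:62864753-62888282) and Fbp2 (ENSMUSG00000021456, chr13:62836877-62858422) are neighbours on the minus strand. G6pc (ENSMUSG00000078650, chr11:101367561-101377903) and G6pc3 (ENSMUSG00000034793, chr11:102189620-102194081) are both on the plus strand of the same chromosome. Pcx (ENSMUSG00000024892) spans chr19:4510472-4621752 and Slc37a4 (ENSMUSG00000032114) chr9:44396852-44402968, both on the plus strand. The exons of Pck2 take up 7806 bases and contain repeated sequence, since its transcripts share a run of at least 50 identical bases with those of 340 other genes, so its counts are less certain than those of the other 7 genes, none of which shares such a run.

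The bases just upstream of the start site are shown for 4 of the genes that were high in liver and kidney, because their fasting values in liver spread from nearly level (G6pc) over intermediate (Fbp1) to the steepest increases (Slc37a4, Pck1). They are RefSeq promoters of GRCm38.p6, given 5′ to 3′ on the gene's own strand as the 250 bases that end just before the start site, with capitals for the core of the cyclic AMP response element (ACGTCA or its complement TGACGT) and for the TATA box (TATAAA or TTTATA). The motifs were chosen after these sequences had been seen.

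Pck1, chr2:173152823-173153072, plus strand: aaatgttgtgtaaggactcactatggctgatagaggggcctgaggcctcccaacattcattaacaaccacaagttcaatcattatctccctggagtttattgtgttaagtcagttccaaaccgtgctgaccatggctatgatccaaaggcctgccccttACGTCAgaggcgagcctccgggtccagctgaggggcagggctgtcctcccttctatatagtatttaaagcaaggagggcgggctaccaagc

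Slc37a4, chr9:44396696-44396945, plus strand: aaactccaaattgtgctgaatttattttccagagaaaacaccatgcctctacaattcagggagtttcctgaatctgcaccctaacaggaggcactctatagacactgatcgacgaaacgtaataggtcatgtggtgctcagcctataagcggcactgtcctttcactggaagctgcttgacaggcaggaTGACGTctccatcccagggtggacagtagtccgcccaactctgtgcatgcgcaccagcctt

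G6pc, chr11:101367466-101367715, plus strand: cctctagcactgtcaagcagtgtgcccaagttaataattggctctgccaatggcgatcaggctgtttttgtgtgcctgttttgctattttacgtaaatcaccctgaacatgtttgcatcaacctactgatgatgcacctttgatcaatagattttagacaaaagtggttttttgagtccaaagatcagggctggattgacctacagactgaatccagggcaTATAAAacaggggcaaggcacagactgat

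Fbp1, chr13:62888283-62888532, minus strand: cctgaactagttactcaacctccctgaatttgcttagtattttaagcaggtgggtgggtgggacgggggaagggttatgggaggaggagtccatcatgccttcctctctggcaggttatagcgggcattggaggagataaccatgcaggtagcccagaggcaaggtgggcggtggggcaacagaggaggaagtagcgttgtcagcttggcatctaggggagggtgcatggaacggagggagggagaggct

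Over windows of 300 bases, from 250 before to 50 after the start, all 8 genes were matched, with 11 start sites between them. The cyclic AMP element core began 91 bases before the start of Pck1 and 61 bases before the outermost start of Slc37a4, and in no other of the 8 genes. It was present in 7.51% of the 32851 mouse promoters of that length. A TATA box began 29 bases before the start of G6pc and 32 bases before the innermost start of Slc37a4, and 13.6% of all promoters held one. Neither the full palindromic element (TGACGTCA, 1.79% of promoters) nor the forkhead core (GTAAACA or TGTTTAC, 3.65%) occurred in any of the windows. These are matches of letters only.

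Pck1, the cytosolic carboxykinase, was the most abundant of the 8 genes per kilobase of exon in both adipose tissues and in fasting liver and kidney, and it was called higher in the fasting library of 6 tissues. In liver it stood at 1066 CPM fed and 4767 CPM fasting, a 4.47-fold difference (log2 ratio 2.16, 95% counting interval 2.14 to 2.18). In kidney it went from 1638 to 6942 CPM, 4.24-fold (log2 ratio 2.08, interval 2.07 to 2.10). Liver and kidney thus had nearly the same ratio, and their fed-to-fasting ranges overlapped. White adipose tissue held 1659 CPM fed and 4019 CPM fasting (log2 ratio 1.28), and brown adipose tissue 4050 and 8243 CPM (1.02), the highest level of the gene in any tissue. In the other 4 tissues the gene stayed under 50 CPM. Lung had 19.9 CPM fed and 46.2 CPM fasting (log2 ratio 1.21), spleen 8.30 and 15.7 CPM (0.92, with acinar pancreas transcripts in the fed library), heart 12.3 and 14.9 CPM (0.28), and muscle 18.0 and 14.7 CPM (-0.29). Muscle was the one tissue with a lower fasting value, and neither muscle nor heart was called. A gene was called here, by the rule of the study, when its log2 ratio of CPM plus 0.01 was beyond 0.5 in size and Fisher's exact test on the counts of the 2 libraries gave an unadjusted p under 0.01.

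Over tissues the mean of the fed and fasting Pck1 level ran in the order brown adipose 6147, kidney 4290, liver 2917 and white adipose 2839 CPM, and the fed-to-fasting ranges of each neighbouring pair overlapped. Then came a gap to lung at 33.1 CPM, followed by muscle, heart and spleen at 16.4, 13.6 and 12.02 CPM, which overlapped one another but not lung.

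Pck2, the mitochondrial carboxykinase, was scarce in liver, where Pck1 was abundant, and among its highest levels in both adipose tissues, where Pck1 was abundant too. Liver held the least of any tissue, with 4.51 CPM fed and 5.41 CPM fasting (104 and 135 counts). Kidney held 18.4 and 23.6 CPM. The highest levels were in spleen (61.6 and 73.0 CPM), white adipose (43.9 and 68.8 CPM), brown adipose (24.9 and 73.5 CPM) and lung (38.9 and 52.1 CPM), and in that order of means the range of each overlapped that of the next. Heart was at 15.0 and 17.5 CPM and muscle at 6.11 and 6.59 CPM. The fasting value was the higher one in all 8 tissues, but only both adipose tissues were called, with log2 ratios of 1.56 in brown (interval 1.398 to 1.73) and 0.65 in white adipose tissue (0.54 to 0.76).

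Pcx, the entry enzyme of the route, was higher after fasting in liver and kidney and lower in white adipose tissue. Liver went from 531 to 1025 CPM (1.93-fold, log2 ratio 0.95, interval 0.92 to 0.98) and kidney from 803 to 1221 CPM (1.52-fold, 0.60, interval 0.58 to 0.63). White adipose tissue fell from 1301 to 810 CPM (log2 ratio -0.68, interval -0.71 to -0.66). Its summed adipocyte markers were 24130 CPM fed and 21160 CPM fasting. Brown adipose tissue, at 1040 and 925 CPM, was not called. The other tissues had 84.4 and 93.6 CPM in muscle, 85.0 and 80.2 CPM in lung, 40.6 and 47.5 CPM in heart, and 7.29 and 6.65 CPM in spleen, fed and fasting, and none was called. The ranges of white adipose, kidney, brown adipose and liver overlapped in that order of means (1055, 1012, 982 and 778 CPM), and all lay above the rest.

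Fbp1 was a gene of liver and kidney, and it was higher after fasting in liver but level in kidney. Liver had 625 CPM fed and 1074 CPM fasting (1.72-fold, log2 ratio 0.78, interval 0.75 to 0.81). Kidney had 915 and 952 CPM, a log2 ratio of 0.06 (interval 0.03 to 0.08). Apart from white adipose tissue, which went from 2.23 to 26.0 CPM, every other library held between 0.58 and 2.62 CPM, and none of those 5 tissues was called. In the 6 tissues Fbp1 came to 0.0542% to 2.42% of its liver level under the same treatment, beside 0.0124% to 0.214% for the hepatocyte list. The kidney tubule list came to 0.00279% to 2.06% of its kidney sum there, highest in fasting white adipose tissue, where it was mostly Lrp2.

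Fbp2, the isoform known from muscle, was called higher after fasting in 5 tissues. In muscle it went from 33.1 to 96.5 CPM (2.92-fold, log2 ratio 1.54, interval 1.43 to 1.66) and in heart from 36.5 to 60.8 CPM (0.73, 0.59 to 0.88). Kidney rose from 10.9 to 19.6 CPM (0.84, 0.62 to 1.07) and brown adipose tissue from 13.3 to 22.0 CPM (0.73, 0.48 to 0.98). The skeletal muscle markers in brown adipose tissue moved the other way, from 2555 to 1179 CPM, or from 1.73% to 0.806% of their sum in muscle. White adipose tissue had the steepest ratio, from 1.16 to 21.9 CPM. Liver, with 11 and 17 counts (0.48 and 0.68 CPM), and lung, with 21 and 35 counts (0.70 and 0.97 CPM), were not called. Spleen had 2 counts in each library, below the floor, and no ratio is given for it.

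G6pc, the catalytic subunit that releases glucose in liver and kidney, was nearly as abundant in fed as in fasting liver. Liver had 420 CPM fed and 487 CPM fasting (1.16-fold, log2 ratio 0.21, interval 0.18 to 0.25), and kidney 415 and 572 CPM (1.38-fold, 0.46, interval 0.43 to 0.50). Both were higher after fasting beyond counting error but below the log2 ratio of 0.5 required for a call. The kidney value lies close to that limit and passed it with TMM factors (0.54) or DESeq2 size factors (0.52) in place of library totals. Fed and fasting values in the other tissues were 1.25 and 3.25 CPM in white adipose (29 and 89 counts, called, log2 ratio 1.38, interval 0.76 to 2.04), 1.68 and 1.22 CPM in spleen, 1.63 and 1.18 CPM in heart, 0.84 and 0.77 CPM in brown adipose, 0.83 and 0.42 CPM in lung, and 0.66 and 0.32 CPM in muscle. These are 0.0664% to 0.666% of the liver level, beside 0.0124% to 0.214% for the hepatocyte list. The kidney tubule list came to 0.00279% to 2.06% of its kidney sum in the same libraries.

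G6pc3, the phosphatase subunit of tissues at large, had its lowest level in liver. There it stood at 3.99 CPM fed and 5.73 CPM fasting (92 and 143 counts), a log2 ratio of 0.52 with a counting interval of 0.13 to 0.91. That call was marginal and was lost with a pseudocount of 1 CPM (0.43), with library totals that left out the 10 most abundant genes (0.49) and with p-values adjusted over all genes. Kidney held 38.4 and 34.3 CPM. Heart (27.0 and 27.1 CPM), brown adipose (25.7 and 28.0 CPM), white adipose (26.2 and 26.0 CPM) and muscle (24.7 and 24.2 CPM) were close together and nearly level, and spleen (20.5 and 17.1 CPM) and lung (16.04 and 12.9 CPM) were lower. None of these 7 tissues was called.

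Slc37a4, the glucose 6-phosphate carrier, was higher after fasting in liver and lower in muscle. Liver went from 93.6 to 230 CPM (2.45-fold, log2 ratio 1.29, interval 1.22 to 1.37), whereas kidney, with 247 and 272 CPM, had the highest level but a log2 ratio of only 0.14 (interval 0.09 to 0.19). Muscle fell from 113 to 70.5 CPM (log2 ratio -0.68, interval -0.76 to -0.60). White adipose tissue rose from 24.3 to 48.5 CPM (0.999, interval 0.86 to 1.14). Heart, at 22.7 and 16.8 CPM, and brown adipose tissue, at 22.5 and 16.01 CPM, had log2 ratios of -0.43 and -0.49 and were not called, the latter just short of the limit. Spleen (18.9 and 18.5 CPM) and lung (15.7 and 14.4 CPM) were not called either. The range of kidney lay above that of liver, and the range of liver overlapped that of muscle.

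**Figure D1:**
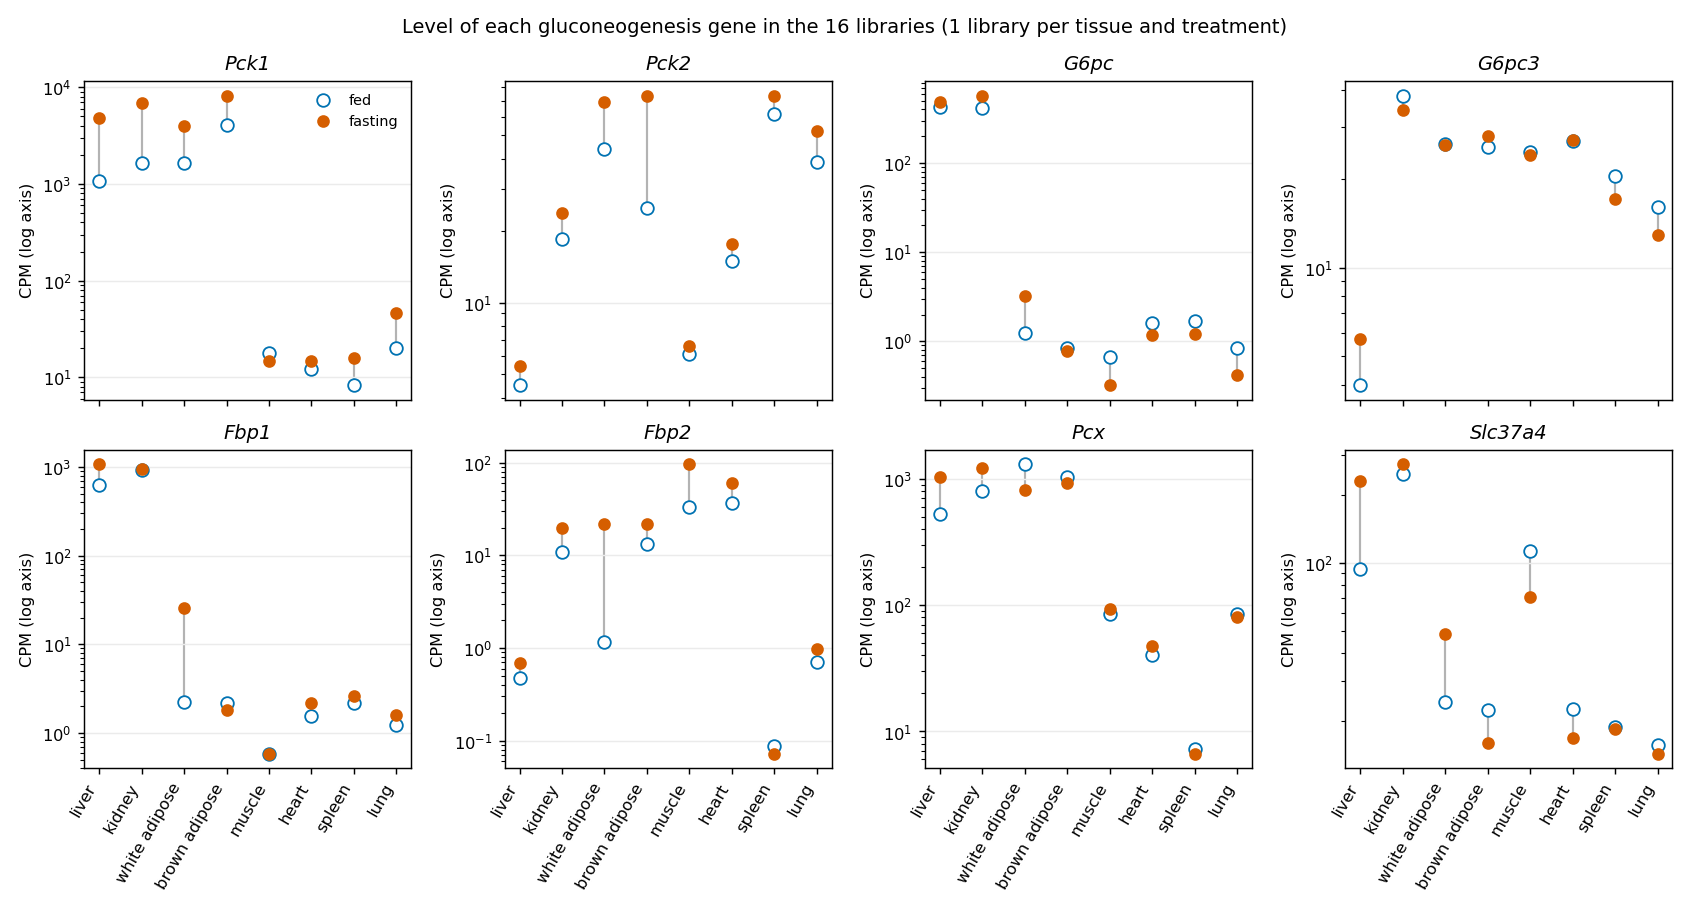
Level of each gene in CPM (log axis, a different scale in each panel) in the fed (open) and fasting (filled) library of 8 tissues, joined by a line; each point is 1 library. G6pc and Fbp1 are at 415 CPM or more in liver and kidney and at 26.0 CPM or less elsewhere, Pck1 and Pcx are also high in both adipose tissues, and Fbp2 is highest in muscle and heart.

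The order of liver and kidney depended on how libraries were scaled. On library totals, kidney had the higher mean of the 2 libraries for G6pc, Fbp1, Slc37a4 and Pcx, at 494, 934, 260 and 1012 CPM against 454, 849, 162 and 778 CPM in liver. With totals scaled by TMM factors, liver had the higher mean, at 705, 1330, 255 and 1220 against 472, 889, 247 and 969 CPM in kidney. For Pck1 the same change put liver at 4638 and kidney at 4148 CPM. The tissue with the highest mean stayed the same for Pck1 (brown adipose) and Fbp2 (muscle), and moved for the other 6 genes: to liver for G6pc, Fbp1, Slc37a4 and Pcx, to muscle for G6pc3 and to brown adipose tissue for Pck2.

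In liver 5 of the 8 genes were called higher after fasting (Pck1, Slc37a4, Pcx, Fbp1 and G6pc3) and none lower, against 4.46% of all genes with a count called higher and 9.52% lower. The hepatocyte list summed to 120500 CPM fed and 116800 CPM fasting, and the acinar pancreas list to 118 and 261 CPM, whose part in these calls was not tested. The median log2 ratio of the 8 genes was 0.65, while over the 14085 genes at 1 CPM or more the median was -0.13. In kidney 3 were called higher (Pck1, Fbp2 and Pcx) and none lower, against 2.77% and 3.93% of all genes. The median was 0.41 there, and the kidney tubule list summed to 40160 and 36540 CPM. White adipose tissue had 6 called higher and 1 lower, against 13.2% and 5.84%. Brown adipose tissue had 3 higher (Pck1, Pck2, Fbp2) and none lower, against 5.39% and 7.58%, and muscle 1 higher and 1 lower, against 4.42% and 9.39%. Heart (Fbp2), spleen (Pck1) and lung (Pck1) had 1 higher and none lower each. All genes were called higher and lower at 4.33% and 5.80% in heart, 2.31% and 1.62% in spleen, and 2.68% and 6.49% in lung. An assumed coefficient of variation of 0.2 between libraries, each a pool of 3 mice, was added in edgeR's exact test. Pck1 and Slc37a4 in liver and Pck1 in kidney then stayed called, against 3.68% and 1.32% of all genes called either way. With 0.4 no member stayed called in either organ, against 0.854% and 0.165%.

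**Figure D2:**
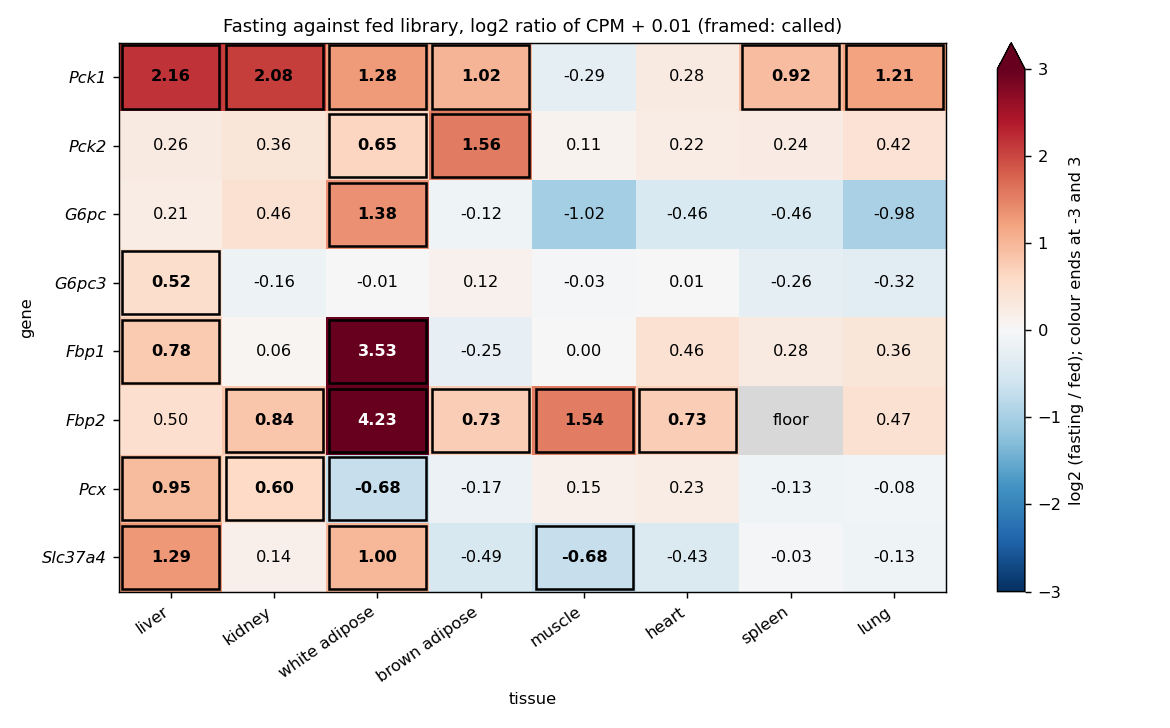
Log2 ratio of fasting to fed CPM (0.01 added to each) for the 8 genes and 8 tissues, 1 library per treatment; red is higher after fasting, frames and bold type mark called values, and grey marks Fbp2 in spleen at 2 counts per library. Pck1 is above 2 in liver and kidney, the liver column holds 5 framed values and the kidney column 3, and the white adipose column holds 4.23 for Fbp2 and 3.53 for Fbp1, beyond the ends of the colour scale.

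Taking the 8 tissues as the repeats of the treatment, in edgeR's quasi-likelihood fit with tissue as a block, none of the 8 genes passed an adjusted p of 0.05, and 1.87% of the 23580 genes tested did. Pck1 came closest, with a log2 difference of 1.14 (SE 0.26, adjusted p 0.051) and a higher fasting value in 7 of 8 tissues. Its call turned with the setting: the adjusted p was 0.0387 with a filter on low counts by treatment group, chosen after seeing the data, 0.0156 without a filter, 0.0485 with library totals, 4.71e-04 in DESeq2 and 0.0453 without the muscle libraries, whereas it was 0.0542 with robust dispersion, 1 without the tissue block, and between 0.0591 and 0.115 without any one of the other 7 tissues. Fbp2 (1.32, SE 0.35, adjusted p 0.0777, higher in 7 of 8 tissues) and Pck2 (0.52, SE 0.14, adjusted p 0.0778, higher in 8 of 8) followed, and Pck2 passed in DESeq2 (adjusted p 0.0149). For Fbp2 the value fell to 0.95 without the white adipose libraries and then passed (adjusted p 0.00987), and it also passed without a filter (0.035) and in DESeq2 (0.022). Fbp1 had 0.76 (SE 0.35, adjusted p 0.276), which became 0.36 without the white adipose libraries (adjusted p 0.19). The other 4 genes lay between 0.01 and 0.15, with adjusted p from 0.695 to 0.974. All tissues were taken from the same animals, 3 fed and 3 fasted, so these p-values describe the spread over tissues and not over animals.

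Whether a tissue's fasting effect differed from that of the other 7 was tested for liver, kidney and white adipose tissue. In liver no member passed, and 0.197% of 24930 genes did. The largest liver difference was that of Slc37a4, 1.48 on the log2 scale (SE 0.44, adjusted p 0.371 in edgeR), which passed when both white adipose libraries were left out (1.63, adjusted p 0.0338, an alternative chosen after seeing the data). Pcx had 1.06 (SE 0.43, adjusted p 0.609) and Pck1 1.31 (SE 0.66, adjusted p 0.733). In kidney edgeR called no gene at all (0%). Of the 24930 genes it tested 483 had an unadjusted p under 0.05, a share below 0.05 itself. DESeq2 called 13 of the 15515 genes that had an adjusted p. The kidney difference of Pck1 was 1.15 (SE 0.69) and that of Fbp1 -0.79 (SE 0.88). In white adipose tissue 4.18% of genes passed, Fbp1 (3.05, SE 0.36, adjusted p 4.11e-04) and Fbp2 (3.16, SE 0.40, adjusted p 6.18e-04) among them. Pcx, which fell in that tissue, did not pass (-1.10, SE 0.40, adjusted p 0.22).

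The white adipose rise of Fbp1 was 11.6-fold (52 and 712 counts, log2 interval 3.13 to 3.98) and that of Fbp2 was 18.7-fold (27 and 600 counts, interval 3.68 to 4.85). Several epithelial genes changed more in the same pair of libraries. Foxj1, which drives the making of motile cilia, went from 1.76 to 126 CPM, the epithelial adhesion gene Epcam from 1.16 to 59.7 CPM and the transcription factor gene Pax8 from 1.07 to 52.7 CPM. The kidney tubule list went from 72.1 to 754 CPM, of which the endocytic receptor gene Lrp2 made 34.95 and 710 CPM. The tubule genes Slc34a1 (5.07 and 6.96 CPM), Kap (20.4 and 18.2 CPM) and Slc5a2 (0.47 and 0.44 CPM) did not follow it. The hepatocyte list was level at 147 and 143 CPM. The lung epithelium list went from 2.10 to 126 CPM, nearly all of it Foxj1, which it shares with the ciliated list, and the macrophage list from 825 to 876 CPM. Hnf4a, a transcription factor gene of liver, kidney and gut epithelium, rose from 2.53 to 58.3 CPM, and the liver-type pyruvate kinase Pklr from 0.34 to 21.5 CPM. Whether the rises of Fbp1, Fbp2, G6pc and Slc37a4 belong to the epithelial transcripts was not tested. In the liver and kidney libraries the ciliated list summed to between 1.60 and 9.08 CPM.

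**Figure D3:**
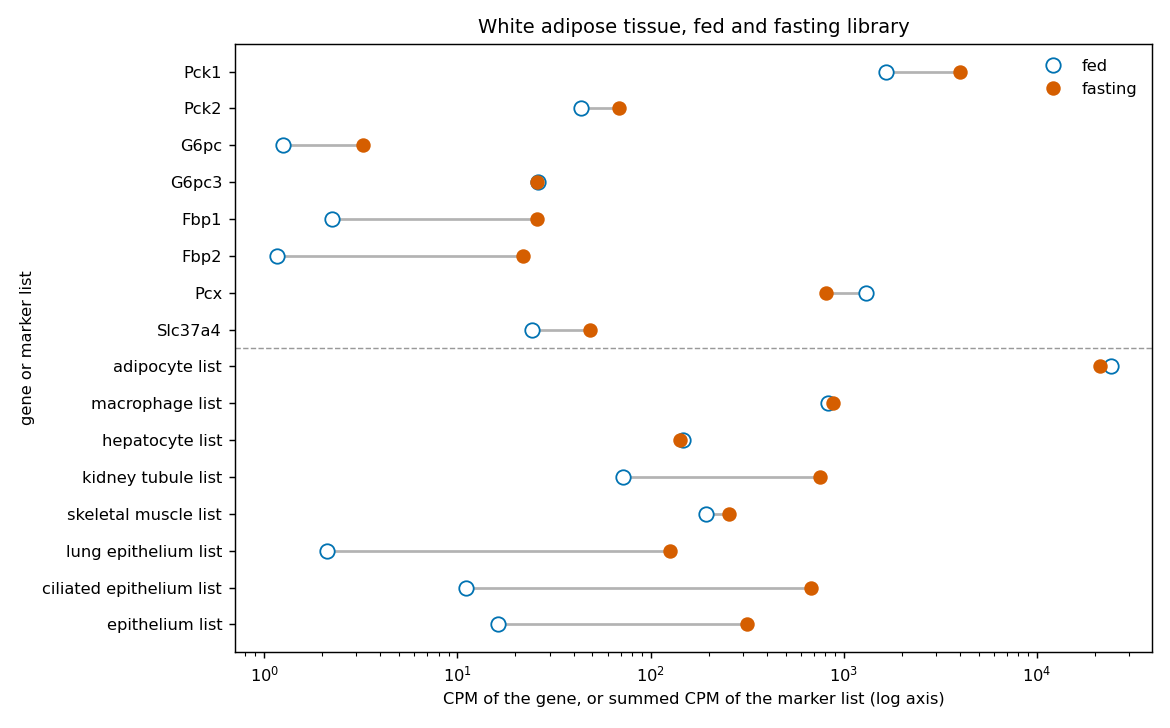
White adipose tissue: CPM of each of the 8 genes (above the dashed line) and summed CPM of cell type marker lists (below it) in the fed (open) and fasting (filled) library, on a log axis. Fbp1 and Fbp2 move from 2.23 and 1.16 CPM to 26.0 and 21.9 CPM, and the ciliated epithelium list from 11.1 to 681 CPM, while the adipocyte and hepatocyte lists barely move.

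Tissue was the larger source of difference. In the same kind of fit, now with treatment as the covariate and each tissue's fed and fasting libraries as its pair of values, 5 genes were higher in liver than in the mean of the 6 tissues other than liver and kidney: G6pc by 9.55 (SE 0.22, adjusted p 1.80e-11), Fbp1 by 9.37 (SE 0.37), Pck1 by 5.29 (SE 0.30), Pcx by 3.49 (SE 0.21) and Slc37a4 by 3.35 (SE 0.26), all as log2 differences. The 3 isoforms of other tissues were lower in liver, Fbp2 by -2.54 (SE 0.79, adjusted p 0.0183), Pck2 by -1.88 (SE 0.25) and G6pc3 by -1.45 (SE 0.17). Of all genes 27.6% were called higher and 25.6% lower in that contrast. Kidney differed from the 6 tissues in the same 5 genes (8.94, 8.87, 5.12, 3.14 and 3.31) and was also higher in Fbp2 (1.48, SE 0.46, adjusted p 0.0187) and G6pc3 (0.72, SE 0.14, adjusted p 1.02e-03), against 28.6% of genes higher and 21.2% lower. Pck2 in kidney was not called (-0.52, SE 0.22, adjusted p 0.0655). Without the treatment term both Fbp2 calls were lost, with adjusted p of 0.0597 for liver and 0.109 for kidney. The p-values of all tissue contrasts rest on pools of the same 3 fed and 3 fasted mice. They do not describe the spread over animals.

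Liver and kidney differed from each other in the isoforms and not, past the threshold, in the main genes. G6pc3 (-2.16, SE 0.20, adjusted p 7.43e-06), Pck2 (-1.35, SE 0.29, adjusted p 2.81e-03) and Fbp2 (-4.02, SE 0.77, adjusted p 1.49e-03) were lower in liver, where 19.2% of all genes were called higher and 23.1% lower. The log2 differences of G6pc (0.61, SE 0.32, adjusted p 0.158), Fbp1 (0.50, SE 0.56), Pcx (0.35, SE 0.34), Pck1 (0.17, SE 0.49) and Slc37a4 (0.04, SE 0.40) did not pass. All 5 turned negative, still not called, with library totals in place of TMM factors (-0.12, -0.23, -0.39, -0.57 and -0.70), a change that moved the median of all genes from -0.04 to -0.76. Totals moved the median from -0.14 to -0.88 for liver against 6 tissues, from -0.22 to -1.23 for muscle and from -0.06 to 0.25 for adipose tissue, with no change of direction in a called member. Pck2 moved from -1.35 to -2.08 in liver minus kidney, and G6pc3 from -1.45 to -2.20 in liver against 6 tissues.

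Muscle was compared with the mean log2 level of the other 7 tissues, which a single tissue can exceed. It was higher than that mean in Fbp2 (5.18, SE 0.36, adjusted p 4.01e-07), Slc37a4 (2.23, SE 0.26) and G6pc3 (1.38, SE 0.13). It was lower in Fbp1 (-3.61, SE 0.69), Pck1 (-3.26, SE 0.49), G6pc (-2.75, SE 0.41) and Pck2 (-1.11, SE 0.23), against 25.9% and 25.0% of all genes. Mean Slc37a4 was 91.8 CPM in muscle, 260 CPM in kidney and 162 CPM in liver (167, 247 and 255 CPM with TMM factors). Mean G6pc3 was 24.4 CPM in muscle and 36.3 CPM in kidney, but 44.6 and 34.5 CPM with TMM factors. Pcx in muscle did not pass (-0.25, SE 0.27). With library totals the muscle values were 0.36 for G6pc3, 1.21 for Slc37a4 and -2.13 for Pck2, all still called, and -1.27 for Pcx, then called as well. The mean log2 level of both adipose tissues was higher than that of the other 6 in Pck1 (5.02, SE 0.26, adjusted p 9.48e-08), Pcx (2.92, SE 0.18), Fbp2 (1.52, SE 0.39) and Pck2 (1.17, SE 0.15). It was lower in G6pc (-2.73, SE 0.29), Fbp1 (-1.61, SE 0.42) and Slc37a4 (-1.32, SE 0.26), against 21.3% and 19.6% of all genes. Adipose tissue thus held transcripts of the lower part of the route, Pcx and Pck1, in ranges that overlapped those of liver on library totals and with TMM factors, with G6pc at 0.77 to 3.25 CPM. G6pc3 did not pass there (0.26, SE 0.11, adjusted p 0.0846), but did with library totals (0.57, adjusted p 8.68e-04). Mean Fbp2 was 17.7 CPM in brown and 11.5 CPM in white adipose tissue, below the 64.8 CPM of muscle and the 48.6 CPM of heart. In white adipose tissue Fbp2 stood at 1.16 CPM fed and 21.9 CPM fasting, the library with epithelial transcripts.

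**Figure D4:**
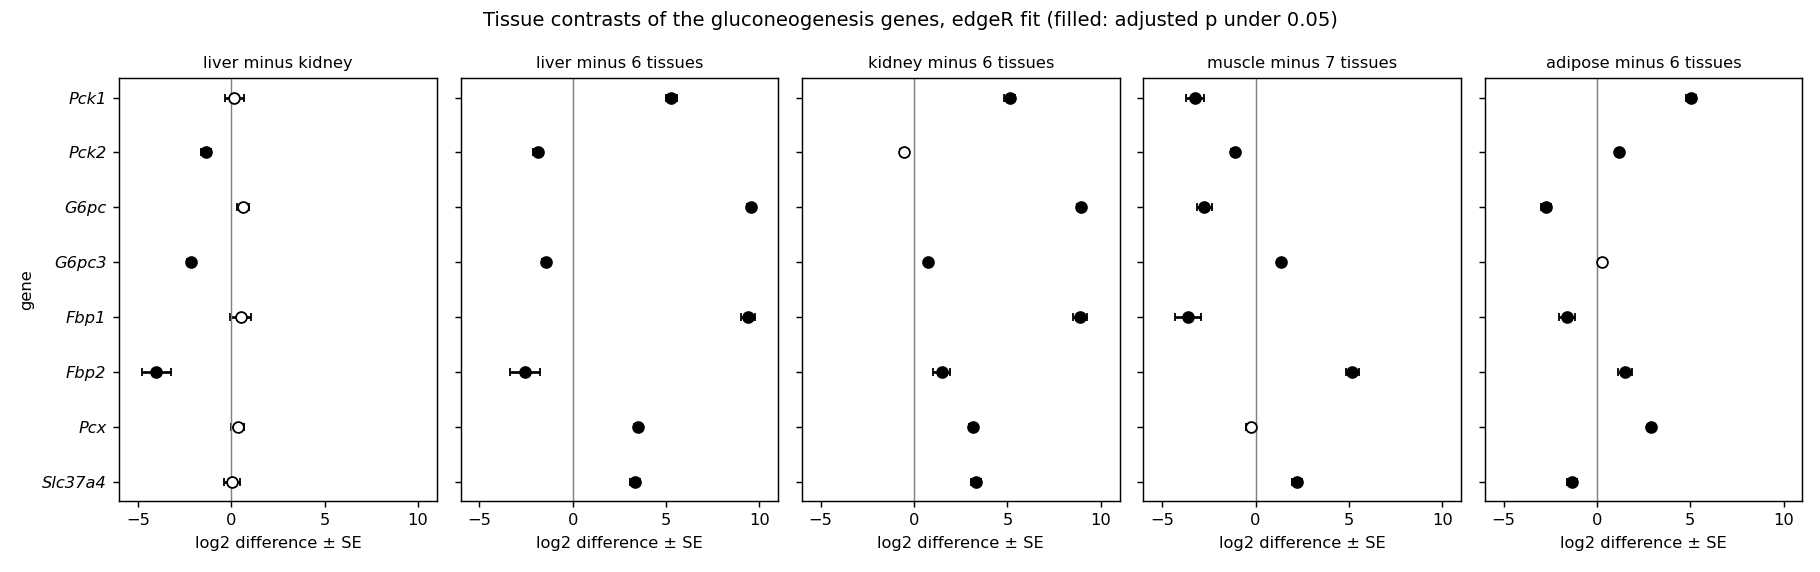
Log2 difference with its standard error for the 8 genes in 5 tissue contrasts of the edgeR fit over 16 libraries; filled points have an adjusted p under 0.05 over 23580 genes. G6pc and Fbp1 lie near 9 in the liver and the kidney contrast, Fbp2 at 5.18 in the muscle contrast, and 3 of the 8 genes differ between liver and kidney.

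The balance within each pair of paralogues, compared as CPM per kilobase of exon, separated the tissues by orders of magnitude. Fbp1 exceeded Fbp2 by 1129 times in fed and 1361 times in fasting liver and by 72.4 and 42.0 times in kidney, whereas in muscle the ratio was 0.0152 fed and 0.00521 fasting and in heart 0.0371 and 0.0307. The fed and fasting liver ratios rest on 11 and 17 Fbp2 counts. G6pc exceeded G6pc3 by 97.0 and 78.4 times in liver and by 9.98 and 15.4 times in kidney, and elsewhere the ratio lay between 0.0123 and 0.115. Liver and kidney were therefore the only tissues of the 8 with more G6pc than G6pc3. Pck1 exceeded Pck2 by 537 and 2007 times in liver and 203 and 670 times in kidney, and spleen was the one tissue below 1 in both libraries, with 0.307 and 0.491. That order depended on the long exon model of Pck2 in fed lung, where the ratio was 1.17 per kilobase of exon but where the longest coding transcripts, of 2661 and 4625 bases, gave 7.49 for Pck1 and 8.41 for Pck2 in CPM per kilobase. In spleen they gave 3.12 and 13.3 fed, the same order.

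The ratio of Pcx to Pck1, the 2 steps that lead from pyruvate to phosphoenolpyruvate, is given as a description, since a rise of Pck1 lowers it. Per kilobase of exon it went from 0.359 to 0.155 in liver, from 0.354 to 0.127 in kidney, from 0.566 to 0.146 in white and from 0.185 to 0.0809 in brown adipose tissue. Spleen went from 0.633 to 0.305, lung from 3.08 to 1.25 and heart from 2.39 to 2.301, and muscle, the one tissue with a higher fasting ratio, from 3.38 to 4.58. For the last step, the ratio of G6pc to Slc37a4 fell from 5.32 to 2.51 in liver and rose from 1.99 to 2.49 in kidney, so that both organs ended near the same value.

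**Figure D5:**
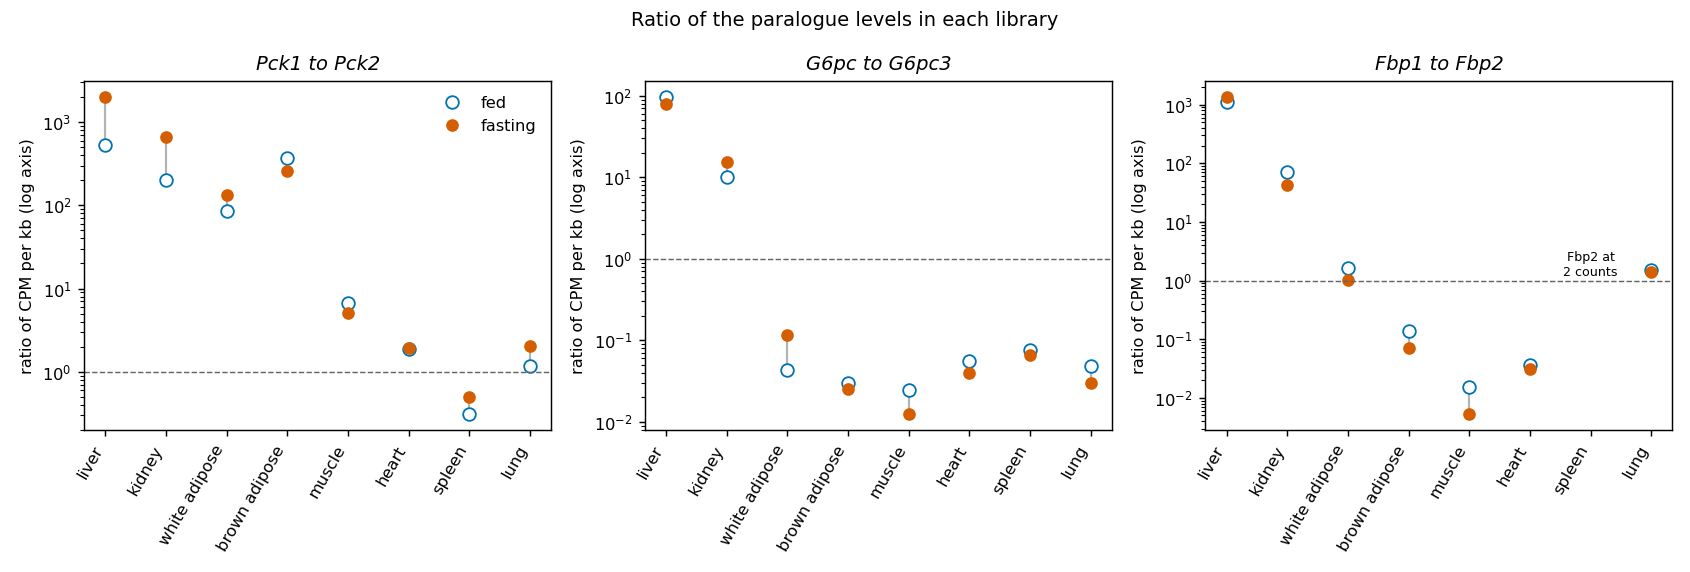
Ratio of Pck1 to Pck2, G6pc to G6pc3 and Fbp1 to Fbp2, each as CPM per kilobase of exon, in the fed (open) and fasting (filled) library of each tissue, on log axes; the dashed line marks equal levels. Liver and kidney lie above the line in all 3 panels, and in the middle panel they are the only tissues that do; the Fbp1 to Fbp2 ratio of spleen is left out because Fbp2 had 2 counts in each library.

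Of 9 genes for the reversible enzymes that gluconeogenesis shares with glycolysis, none was called in kidney, against 2.77% of all genes called higher and 3.93% lower. Their median log2 ratios were 0.22 in liver and -0.11 in kidney. The cytosolic malate dehydrogenase Mdh1 (473 and 427 CPM in liver) and the triose phosphate isomerase Tpi1 (253 and 336 CPM) were not called.

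Of 13 genes of the opposing glycolytic steps 2 were called higher and 3 lower in fasting liver, and 1 higher and none lower in kidney, against 4.46% of all genes higher and 9.52% lower in liver and 2.77% and 3.93% in kidney. Pklr, the liver-type pyruvate kinase, fell from 202 to 41.0 CPM in liver (log2 ratio -2.30), opposite in direction to Pck1, and rose from 25.3 to 41.5 CPM in kidney (0.71). Pfkfb1 and Pfkfb2, which encode bifunctional enzymes that set fructose 2,6-bisphosphate, rose in liver from 31.5 to 55.8 CPM and from 18.2 to 39.1 CPM. The muscle-type pyruvate kinase Pkm (17.2 and 15.1 CPM in liver, 237 and 199 CPM in kidney) and hexokinase Hk1 (4.86 and 4.33 CPM, 137 and 140 CPM) were not called in either organ.

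Genes that supply precursors were called higher in fasting liver in 9 of 20 cases and lower in 2, against 4.46% and 9.52% of all genes. Got1, the cytosolic aspartate aminotransferase, went from 156 to 717 CPM (log2 ratio 2.201) and Gpt2, an alanine aminotransferase, from 385 to 1143 CPM (1.57). Tat, which degrades tyrosine, rose from 840 to 2171 CPM (1.37), and the glycerol kinase gene Gk from 136 to 278 CPM (1.04). Glud1, the glutamate dehydrogenase, fell from 1215 to 666 CPM in liver (-0.87) and rose from 478 to 731 CPM in kidney (0.61). Kidney had 4 called higher and 1 lower, against 2.77% and 3.93% of all genes, the 2 steepest rises being the lactate and pyruvate transporter gene Slc16a1 (89.0 to 136 CPM) and Glud1, and its median log2 ratio was -0.07, against 0.51 in liver.

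Of 16 regulators 6 were called higher and 2 lower in fasting liver, and 3 higher and none lower in kidney, against the same shares of all genes. Igfbp1, a gene that insulin is known to repress, rose from 28.1 to 186 CPM in liver (log2 ratio 2.73) and from 9.67 to 15.98 CPM in kidney (0.73). Ppargc1a, the coactivator known to switch on Pck1 and G6pc, rose from 14.9 to 34.3 CPM in liver (1.21) and was not called in kidney (135 and 153 CPM). Cebpb rose from 39.6 to 80.0 CPM in liver (1.015) and from 15.4 to 27.7 CPM in kidney (0.85). Nr0b2, a nuclear receptor that represses transcription, fell from 26.0 to 15.2 CPM in liver (-0.78) and the glucocorticoid receptor gene Nr3c1 from 173 to 103 CPM (-0.75). Hnf4a, the most abundant of the list, stood at 620 and 964 CPM in liver (0.64, called) and 954 and 950 CPM in kidney. The glucose transporter gene Slc2a2 (372 and 278 CPM in liver) and the insulin receptor gene Insr (306 and 323 CPM in liver, 158 and 235 CPM in kidney) were the next in level, and of these Insr in kidney was called. In the edgeR fit over all tissues 3 of the 16 regulators passed, against 1.87% of all genes. They were Klf15 (0.94, SE 0.14, adjusted p 0.0117), Sik1 (0.54, SE 0.09, adjusted p 0.0191) and Insr (0.45, SE 0.08, adjusted p 0.0213), named because they passed. None of the other 42 genes of the 3 further lists did.

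The genes whose pattern was most like each member, by Pearson's r of log2(CPM + 1) over the 16 libraries among 14903 genes, are given as a description, since libraries of 1 tissue share most of their expression. G6pc was closest to the glucose transporter gene Slc2a2 and to Aldh8a1 (r = 0.997 for each), and Fbp1 to 0610005C13Rik (0.998) and Hnf4a (0.995). Pck1 was closest to Pex14 (0.971) and Mocs2 (0.965), and Pcx to Gstz1 (0.934) and Lrp3 (0.925). Slc37a4 had only 0.906 with Sel1l3 and 0.904 with Dnph1. Of the isoforms, Pck2 was closest to Ubap2l (0.977) and Lrch3 (0.973), G6pc3 to Tspan3 (0.973) and Prmt5 (0.957), and Fbp2 to Klhdc2 (0.924) and Pink1 (0.909). Among the members themselves G6pc and Fbp1 (r = 0.986) and Pck1 and Pcx (0.923) were the closest pairs, Slc37a4 had 0.824 with G6pc, and Pck2 and Slc37a4 were the most opposed (-0.624).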

How the data were processed

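Tissue was pooled before RNA extraction. The RNA was sequenced as paired reads of 100 bases from strand-specific libraries, and the reads were processed by the authors. The submitters' processing notes name fastp 0.23.2, FastQC 0.11.8, HISAT2 2.2.1.0, GRCm38 and featureCounts of Subread 2.0, with GENCODE release M24 in the methods; the strand setting and whether reads or pairs were counted are not given in the sources used here. The deposited table holds raw counts per gene. Symbols came from a table that matched 55144 of 55385 identifiers without their version. CPM used library totals, and levels per kilobase used the exon length in the table.

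The members and gene lists were chosen with earlier results of these data known. Within a tissue, Fisher's exact test (two-sided, scipy 1.17.1 as a check of the code) compared 2 libraries on log2 ratios with 0.01 CPM added. Intervals are exact (Clopper-Pearson, 95%) and cover counting error only, since no molecular identifiers are named. Fits across all genes used edgeR 4.0.16 (quasi-likelihood test, TMM, filterByExpr, Benjamini-Hochberg) with 7 residual degrees of freedom, or 6 for differences of the fasting effect, and were tested on simulated data. DESeq2 1.42.0 was an alternative. Aldoa maps to 2 identifiers and was left out of its list. Named genes were all 8 members, of each context list the 3 highest in liver and kidney and the 2 largest called rises and falls with at least 10 CPM, the 2 most alike genes per member and the 2 highest genes per marker list, of which some are not reported here. Other marker genes in the white adipose paragraph, and both added epithelial lists, were chosen after their values were seen.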

Additional observations from a re-analysis of the deposited data

Results flagged for a closer look

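The fasting effect of Fbp1 and of Fbp2 differed between white adipose tissue and the other 7 tissues, by 3.05 (SE 0.36) and 3.16 (SE 0.40) on the log2 scale, with edgeR adjusted p of 4.11e-04 and 6.18e-04. Under the 3 alternatives run for this comparison, Fbp1 ranged from 3.06 to 3.24 and Fbp2 from 3.17 to 3.34, with an adjusted p of at most 1.28e-04 and 3.12e-04. Epithelial transcripts moved in the same pair of libraries, and their part in the result was not tested.

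Pcx was called in opposite directions, with a log2 ratio of 0.95 in liver and -0.68 in white adipose tissue. Liver against white adipose was not tested directly, and the difference of white adipose tissue from the other 7 did not pass (adjusted p 0.22 in edgeR). Slc37a4 was called higher in liver (1.29) and lower in muscle (-0.68), a difference that was not tested.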

How the results depend on the processing

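Fed and fasting libraries were paired by tissue, as the block of the fit over tissues. The call of a member within a tissue depends on the error assumed between libraries of pooled mice. With a coefficient of variation of 0.2 the members called were 2 in liver (3.68% of all genes), 1 in kidney (1.32%), 4 in white adipose (8.51%), 1 in brown adipose (3.23%), 1 in muscle (2.94%), 1 in lung (1.88%), and 0 in heart (2.17%) and spleen (0.827%). With 0.4 they were 2 in white adipose (4.02%) and 0 in the other 7 tissues (0.165% to 0.854%). With a log2 limit of 1 they were 2 in liver (5.92%), 1 in kidney (2.57%), 4 in white adipose (11.1%), 2 in brown adipose (5.52%), 1 in muscle (5.32%), 1 in lung (3.67%), and 0 in heart (3.95%) and spleen (1.64%). The directions of 514 of 569 member values and their side of the limits were kept. G6pc3 changed sign in muscle with TMM factors (0.046) or DESeq2 size factors (0.047), and in heart without the 10 highest genes (-0.002). The 3 that gained a call were G6pc in kidney under both factor sets and Slc37a4 in brown adipose tissue (-0.51, DESeq2 size factors).

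In the fit over tissues the members called were 3 in DESeq2 (Pck1, Fbp2 and Pck2), 1 with total counts and 2 without a filter. There was 1 each without muscle, without white adipose tissue and with the filter by treatment group. All genes called ranged from 1 (no tissue block) to 1832 of 16234 with an adjusted p (DESeq2). They were 619 of 23580 with total counts and 677 of 37084 without a filter. The counts were 135 of 23332 without muscle, 457 of 23229 without white adipose tissue and 759 of 17296 with the filter by treatment group. G6pc3, near 0, changed sign in DESeq2 (-0.007), with total counts (-0.027), and without brown adipose (-0.008), liver (-0.066) or muscle (-0.004). Slc37a4 did without liver (-0.057) and G6pc without white adipose tissue (-0.01). Leaving out brown adipose tissue, heart, lung or muscle reduced all genes called to 81, 125, 132 and 135 from 441.

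In the tissue contrasts the call of Fbp2 was lost without the treatment term for liver (-2.61, adjusted p 0.0597) and kidney (1.37, adjusted p 0.109) in edgeR. Pck2 in kidney passed in DESeq2 (-0.59), and with total counts Pcx in muscle (-1.27) and G6pc3 in adipose tissue (0.57) did. Liver minus kidney with total counts gave -0.57 for Pck1, -0.70 for Slc37a4, -0.12 for G6pc, -0.23 for Fbp1 and -0.39 for Pcx. For the difference of the fasting effect in liver, 1 member passed without both white adipose libraries, and all genes called rose to 176. In white adipose tissue Pck2 changed sign in DESeq2 (0.02), with total counts (0.18) and without a filter (0.013), and G6pc3 with total counts (0.023). By rank correlation 6 of the 16 most alike genes stayed among the 2 closest of their member. TPM leaves the ratio of a gene pair within a library as it is by construction. The causes of these changes were not tested. Depth limits Fbp2 in liver, lung and spleen and G6pc outside liver and kidney, where counts were at most 89.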
